A study of Homo sapiens with 12 samples.

Results

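The 41 genes described here encode the parts of the machinery that acidifies the lysosome and digests its contents. They comprise 6 subunits of the membrane-embedded V0 sector of the vacuolar proton pump (V-ATPase), 8 subunits of its cytosolic V1 sector, 2 accessory subunits, 3 lysosomal membrane proteins, 16 acid hydrolases, 3 hydrolase activators or cofactors and 3 transcription factors of the TFE family. They were chosen by symbol as a module of lysosomal function, with the cathepsins left out. The choice used no measured value as its rule, but it was made with earlier results of these data known. All 41 symbols matched a row among the 58735 gene rows of the count table, and all 41 passed the filter on low counts that left 15471 genes for testing.

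RNA was sequenced from THP-1 macrophages, a macrophage form of a human monocytic leukaemia line. The cells had been transfected with 30 nM of a miR-122-5p mimic (6 libraries) or of a control microRNA mimic (6 libraries) for 24 h. All cells were then rested and given lipopolysaccharide (LPS) for 4 h, so both groups are LPS-stimulated and no unstimulated or untransfected group is part of the comparison. The model is 1 cell line, the sequence of the control mimic is not given in the sources used here, and the labels name no separate cultures. The p-values therefore describe the variation among these 12 libraries, and that variation could be technical only.

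V-ATPase uses ATP hydrolysis in V1, by the A and B subunits, to turn a ring of c subunits in V0 and so move protons into the lysosome. The low pH lets acid hydrolases, which reach the lysosome mainly by mannose 6-phosphate tagging, break down protein, lipid and glycan. TFEB, TFE3 and MITF are basic helix-loop-helix factors that bind a CACGTG-centred element in the promoters of many of these genes, and they are held in the cytosol when mTORC1 on the lysosome phosphorylates them. In macrophages, lysosomes digest phagocytosed material, and LPS sensing is known to alter TFE factor activity.

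miR-122-5p binds target messengers mainly through its seed, bases 2 to 8, shown here in capitals because the sites that follow pair with it.
hsa-miR-122-5p: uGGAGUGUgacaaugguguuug

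In the longest annotated 3′ UTR, a match to the seed (ACACTCC, a 7mer-m8; CACTCCA, a 7mer-A1; or both overlapping as an 8mer; sense strand only) was present in 7 of 41 genes, 17.1%, against 23.9% of the 12874 tested genes with an annotated 3′ UTR. Taking any annotated 3′ UTR, 8 of 41 genes (19.5%) and 26.0% of tested genes held a match. The further gene was TPP1, with a 7mer-A1, and it was called lower. The sites in 4 of the genes are shown so that they can be read beside the changes described later. Each lies in the 3′ UTR of the named gene in GRCh38, and its 7 matching bases are in capitals. ATP6V1H and LAMP2 also held a match, each a 7mer-A1, and ASAH1 held the only 8mer.
ARSB, chr5:78780204-78780226, minus strand: aatctgcaACACTCCtgctgttg
ARSB, chr5:78779908-78779930, minus strand: tgttcaggCACTCCAagtgaacc
PPT1, chr1:40073071-40073093, minus strand: aatactacACACTCCctttctcc
TFE3, chrX:49028871-49028893, minus strand: atcaagagACACTCCcccctcca
ATP6V1F, chr7:128865681-128865703, plus strand: ctccttccCACTCCAttaagagg

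Of the 7 genes with a match, ARSB, LAMP2 and ASAH1 were called lower and PPT1, TFE3, ATP6V1F and ATP6V1H were not called. Among all 41 genes 29.3% were called lower, and among all tested genes 26.2%. After the correction for GC content and transcript length described below, ARSB, LAMP2 and TFE3 were called lower and ATP6V1H higher. ASAH1 was then at a log2 fold change of 0.064 and not called. Whether a match goes with a fall was not tested. LGMN, the gene that fell most, and ATP6V1B2, ATP6V1A, LIPA and ATP6V0E1 held no match in the UTR searched. A match is a description of letters and not evidence of binding.

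The promoters were searched for TCACGTG on either strand, the core of the element bound by TFE factors. It contains the shorter word CACGTG, and the 2 overlap wherever TCACGTG is found. RefSeq promoter windows (GRCh38.p14, 250 bases before to 50 after the start) were matched for 28 of the 41 genes, and 8 of the 28 (28.6%) held TCACGTG, against 4.49% of the 27305 genes in the table. The shorter CACGTG was in the same 28.6% of these genes and in 8.77% of all genes. The genes in the table include genes not tested here, while all 28 passed the low-count filter. The sets compared are therefore not alike in expression. The element is also already known from the promoters of many of these genes, so its higher share among them is not a result of these data. The windows below show 1 or 2 matches from each of the 8 genes. TCACGTG, its reverse complement, or both as TCACGTGA are in capitals, because the TFE factors described later are known to bind this element. A match is a description of letters, and binding was not tested.
ATP6V0B, chr1:43974892-43974919, plus strand: cggcgtggggTCACGTGgtaccggcgca
ATP6V0D1, chr16:67481200-67481227, minus strand: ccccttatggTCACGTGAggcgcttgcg
ATP6V1G1, chr9:114587700-114587727, plus strand: cgctgtgcggTCACGTGAcaacgggggc
LAMP1, chr13:113297200-113297227, plus strand: acccgcgggaTCACGTGAcgcccgggcg
LAMP1, chr13:113297227-113297254, plus strand: gcggcgcagcTCACGTGAcaagcgctgc
MCOLN1, chr19:7522572-7522599, plus strand: ccagaggcggTCACGTGAggggctctgg
MCOLN1, chr19:7522599-7522626, plus strand: ggctaccgggTCACGTGAccgaggcaca
GAA, chr17:80101494-80101521, plus strand: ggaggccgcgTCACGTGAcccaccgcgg
NEU1, chr6:31862931-31862958, minus strand: tgctgcgtgaTCACGTGggaggagatga
ARSB, chr5:78986102-78986129, minus strand: aattcaataagCACGTGActaaaggatt

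Before the results, 3 properties of the whole data set bear on them. Library totals ran from 29473750 to 39468157 counts. Macrophage and monocyte markers summed to 1629 to 1796 CPM (read counts scaled by each library's total and TMM factor) with miR-122-5p and 1825 to 2107 CPM in controls. Of these 10 markers 9 averaged at least 1 CPM, and the exception, CD68, is described with ATP6V0C. The 9 went different ways: PTPRC (log2 fold change -1.21), CD163 (-0.81), CD14 (-0.39), FCER1G (-0.38) and CSF1R (-0.36) fell, ITGAM (0.19) rose, and SPI1 (0.17), CD33 (0.15) and LYZ (0.10) were not called. The part of these differences in the results was not tested. All 3 T cell markers (CD3E, CD3D and CD2) and the epithelial marker EPCAM were at 0 in every library. Among the markers of the other cell types looked for, those of the B cell summed to at most 4.24 CPM, the neutrophil to 42.2 CPM, the epithelium to 1.06 CPM, the hepatocyte to 13.9 CPM and the fibroblast to 4.42 CPM in any library. In bulk RNA, fewer cells of a type and less RNA per cell cannot be told apart. Finally, the libraries differed in how relative level changed with transcript GC content. The slope was 0.146 ± 0.066 log2 units per 10 percentage points of GC with miR-122-5p and -0.146 ± 0.124 in controls (SD, n = 6 each), the groups did not overlap, and the two-sided exact permutation p of 0.00216 is the smallest that 6 against 6 libraries allow. Because this slope separates the groups completely, its share in a fold change and that of the mimic cannot be told apart, and most fold changes below are therefore also given after a correction for each library's trend with GC content and transcript length, called GC-corrected.

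Of the 41 genes, 7 rose with miR-122-5p, 12 fell and 22 did neither at an adjusted p under 0.05 (edgeR quasi-likelihood test, Benjamini-Hochberg over all 15471 genes). Over all tested genes 24.3% were called higher and 26.2% lower, beside 17.1% and 29.3% of these genes. The lower share of rises depended on the method. With DESeq2, 24.4% of these genes and 25.5% of all tested genes were called higher, and with library totals 29.3% and 26.7%. The median log2 fold change of the 41 was -0.009, against 0.007 over all tested genes. The rises were TFEB, ARSA, MAN2B1, HEXA, GUSB, ATP6V0B and ATP6V0C, and the falls were LGMN, ATP6V1B2, ARSB, ATP6V1A, LIPA, ATP6V0E1, ATP6V1C1, LAMP2, ATP6V1E1, ASAH1, TPP1 and LAMP1. In 3 genes (TFEB, ARSA and MAN2B1) every miR-122-5p library lay above every control library and in 9 every one lay below, which over all tested genes was the case for 13.4% and 16.1%. The count of rises was 4 without miR-122-5p library 1, 3 without miR-122-5p library 2 and 4 without control library 5, and the count of falls stayed between 11 and 13 whichever library was left out. With scaling by library totals alone, 12 rose and 11 fell, so that rises made up 52.2% of the calls, against 36.8% with TMM scaling. Over all tested genes rises made up 53.3% and 48.1% of the calls.

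**Figure D1:**
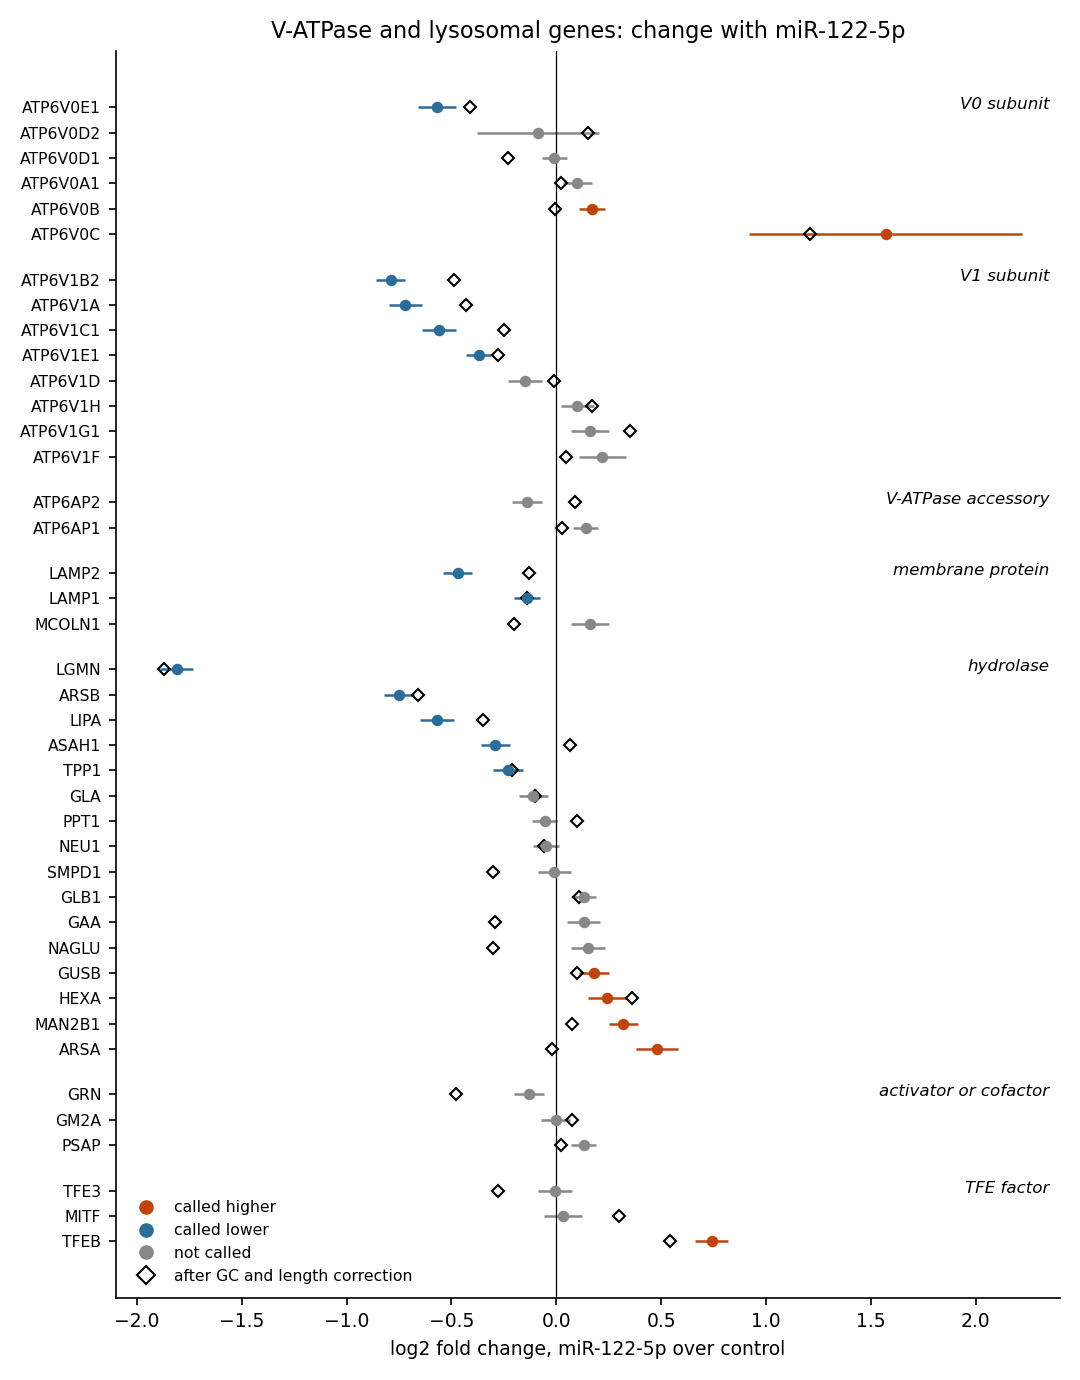
Log2 fold change of each of the 41 genes, miR-122-5p over control (horizontal axis), by role, with its standard error as a bar and circles coloured by the call; open diamonds are the GC-corrected values. LGMN lies at -1.81 and TFEB at 0.74, and the GC-corrected values of most genes that rose lie nearer to 0.

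GC-corrected, 5 genes were higher and 17 lower, beside 23.3% and 23.5% of all tested genes, so rises made up 22.7% of the calls. Of the 7 rises, TFEB and HEXA were still called, and of the 12 falls all but ASAH1. The 3 genes called higher only after correction were ATP6V1G1, ATP6V1H and MITF, and the 6 called lower only after correction were ATP6V0D1, GAA, NAGLU, SMPD1, GRN and TFE3. With the library slope as a covariate instead, 4 genes were higher and 5 lower, beside 7.22% and 12.2% of all tested genes. That fit called TFEB, HEXA, ATP6V1H and MITF higher and LGMN, ARSB, ATP6V1B2, ATP6V1A and GRN lower, and over all genes it moved the share of calls that were rises from 48.1% to 37.2%. The calls of LGMN, ARSB, ATP6V1B2, ATP6V1A and TFEB, 5 in all, were kept in all 22 refits.

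Within the V0 sector, which forms the proton channel, 2 of 6 subunits rose, 1 fell and 3 were not called. The shares were 33.3% and 16.7%, beside 24.3% and 26.2% of all tested genes. ATP6V0E1, the small e subunit, was at 169.9, 188 and 195 CPM (lowest, median, highest) with miR-122-5p and at 225, 266 and 373 CPM in controls. The groups did not overlap, and the highest control library, number 1, stood well above the other 5. Its log2 fold change was -0.57 ± 0.09 (SE; edgeR adjusted p = 2.71e-05), or -0.41 GC-corrected (adjusted p = 1.39e-04), and with the slope covariate it was -0.14 and not called (edgeR adjusted p = 0.499).

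ATP6V0B, the c″ subunit of the rotor ring, rose by a small amount from 629 ± 24.3 to 706 ± 57.4 CPM (SD, n = 6; log2 fold change 0.17 ± 0.06, edgeR adjusted p = 0.0336), and the groups overlapped. GC-corrected its log2 fold change was -0.008, and the call was lost on leaving out control library 5 (edgeR adjusted p = 0.0612) or libraries 1 or 2 of the miR-122-5p group (adjusted p = 0.082 and 0.054). ATP6V0A1 (62.1 against 58.0 CPM), ATP6V0D1 (131 against 132 CPM) and ATP6V0D2 (1.14 against 1.21 CPM), the a1 subunit and both d isoforms, were not called. ATP6V0D2, known from osteoclasts and macrophages, was near the limit of detection, with 19 to 67 counts per library.

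ATP6V0C, the proteolipid c subunit that makes up most of the rotor ring, was listed at 0.158 CPM per kilobase of exon in controls, against 178 for ATP6V0B. It had 18 to 33 counts in miR-122-5p libraries and 0, 0, 2, 6, 12 and 26 counts in the 6 controls. The groups overlapped, and the call (log2 fold change 1.57 ± 0.65, edgeR adjusted p = 0.0479) was lost when any of 10 of the 12 libraries was left out (the lowest of those 10 adjusted p was 0.0571, without miR-122-5p library 3; the exceptions were control libraries 2 and 3), while the GC-corrected value was 1.21 (not called, adjusted p = 0.107) and the slope covariate gave -1.01 (edgeR adjusted p = 0.485). In GENCODE 29, 72.1% of its exon length on chromosome 16 (chr16:2513870-2520218, plus strand) is shared with other genes, among them, on the same strand, the protein-coding AC093525.1 and AC093525.2, both listed at 0 in every library. The macrophage marker CD68 likewise has 85.8% of its exon length inside other genes and was listed at 0.239 CPM with miR-122-5p and 0.216 CPM in controls. The values of both genes are therefore uncertain as levels, and the part of the overlap in them was not tested.

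Most of the falls in V-ATPase lay in the V1 sector. ATP6V1A, ATP6V1B2, ATP6V1C1 and ATP6V1E1 fell, the other 4 of 8 subunits were not called, and none rose. The median log2 fold change of the 8 was -0.26, or -0.13 GC-corrected.

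ATP6V1B2 encodes the B subunit of the catalytic hexamer that is used in most tissues. It was at 497, 521 and 544 CPM with miR-122-5p and at 818, 867 and 1075 CPM in controls. The groups were clearly apart, with a gap between the highest miR-122-5p and the lowest control library that was wider than the spread within the miR-122-5p group. The log2 fold change was -0.79 ± 0.07 (edgeR adjusted p = 3.54e-09), -0.49 GC-corrected (adjusted p = 1.29e-07) and -0.57 with the slope covariate (adjusted p = 1.65e-04).

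ATP6V1A, the subunit that hydrolyses ATP, was at 31.6, 36.4 and 40.4 CPM with miR-122-5p and at 53.2, 58.5 and 65.3 CPM in controls. Every miR-122-5p library was lower than every control library. Its log2 fold change was -0.72 ± 0.08 (edgeR adjusted p = 1.64e-07) and -0.43 GC-corrected (adjusted p = 2.22e-06). The A and B subunits alternate in the same hexamer, and the standard errors of their fold changes overlapped.

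ATP6V1C1, the subunit that links the stator to V1 and is known to be released when the pump disassembles, fell from 95.1 ± 13.1 to 64.7 ± 3.90 CPM (log2 fold change -0.56 ± 0.08, edgeR adjusted p = 1.22e-05, GC-corrected -0.25). ATP6V1E1, part of the peripheral stalk, fell from 355 ± 25.1 to 275 ± 14.3 CPM (log2 fold change -0.37 ± 0.06, edgeR adjusted p = 5.23e-05, GC-corrected -0.28). In neither gene did the groups overlap, but neither was called with the slope covariate (edgeR adjusted p = 0.423 and 0.214).

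The 4 V1 subunits that were not called had log2 fold changes of -0.15 (ATP6V1D, central stalk), 0.10 (ATP6V1H, a regulator of V1 activity), 0.16 (ATP6V1G1, peripheral stalk) and 0.22 (ATP6V1F, central stalk). GC-corrected, ATP6V1G1 was at 0.35 and ATP6V1H at 0.17 (adjusted p = 0.00218 and 0.0402), and ATP6V1D at -0.009 and ATP6V1F at 0.047. ATP6V1F had a low value in control library 1, 184 CPM, with the other 5 controls up to 343 CPM.

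The accessory subunits, which help assemble the pump and carry it to its membrane, were not called. ATP6AP1 was at 673, 696 and 742 CPM with miR-122-5p and 581, 651 and 691 CPM in controls, with overlap (log2 fold change 0.14 ± 0.06, edgeR adjusted p = 0.0703, GC-corrected 0.029). ATP6AP2, the prorenin receptor, was at 315 ± 12.8 against 348 ± 36.1 CPM (log2 fold change -0.14 ± 0.07, edgeR adjusted p = 0.0928, GC-corrected 0.089).

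Several V-ATPase subunits exist as alternative isoforms, and the share of each in its subunit was computed from levels per kilobase of exon. TCIRG1, the a3 isoform, made up 96.6% of the a subunit transcripts with miR-122-5p and 96.2% in controls, which places the level of ATP6V0A1 at 2.95% in both groups. ATP6V0D1 made up 97.7% and 97.6% of the d subunit, and ATP6V1B2 nearly all of the B subunit. The C subunit moved most: ATP6V1C2 took 17.5 ± 2.03% (13.6 to 19.2%) with miR-122-5p and 9.32 ± 2.06% (7.15 to 11.8%) in controls, and ATP6V1C1 the rest. The groups did not overlap (two-sided exact permutation p = 0.00216, n = 6, adjusted p = 0.00756 over the 7 subunits with isoforms). ATP6V1C2 itself rose (log2 fold change 0.51 ± 0.13, edgeR adjusted p = 0.00253, GC-corrected 0.68). Its own level overlapped between the groups, at 6.23 to 9.50 CPM with miR-122-5p and 4.62 to 6.95 CPM in controls. With the slope covariate it was at 0.63 and not called (edgeR adjusted p = 0.0714), and 29.9% of its exon length is shared with other genes. The shares were computed from levels as counted and were not GC-corrected. ATP6V0A2, the a2 isoform known from the Golgi, went from 0.830% to 0.452% of the a subunit (exact permutation p = 0.00433, adjusted p = 0.00758). The test also passed for the e, E and G subunits, whose main isoforms moved by -0.148, -0.127 and 0.288 percentage points, and not for d and B (5 of 7 in all). These shares were tested after the values had been seen.

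Of the 3 membrane proteins, LAMP1 and LAMP2 fell and MCOLN1 was not called, while 26.2% of all tested genes fell. LAMP2, the glycoprotein that lines the lysosomal membrane and serves chaperone-mediated autophagy, was at 213, 219 and 223 CPM with miR-122-5p and 263, 297 and 344 CPM in controls. The miR-122-5p libraries lay in a narrow band below all controls. The log2 fold change of -0.47 ± 0.07 (edgeR adjusted p = 6.40e-06) was -0.13 GC-corrected (adjusted p = 0.0426), and LAMP2 has one of the lowest GC contents of the 41 genes, 37.7%.

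LAMP1 fell from 233 ± 7.02 to 212 ± 8.40 CPM (log2 fold change -0.14 ± 0.06, edgeR adjusted p = 0.0495, GC-corrected -0.14). The call was lost without any of 10 of the 12 libraries, with adjusted p up to 0.123 (the exceptions were miR-122-5p library 1 and control library 5). MCOLN1, the calcium channel TRPML1 of the lysosome, was at 17.0 ± 1.06 against 15.3 ± 1.42 CPM (log2 fold change 0.16 ± 0.09, edgeR adjusted p = 0.134, GC-corrected -0.20).

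**Figure D2:**
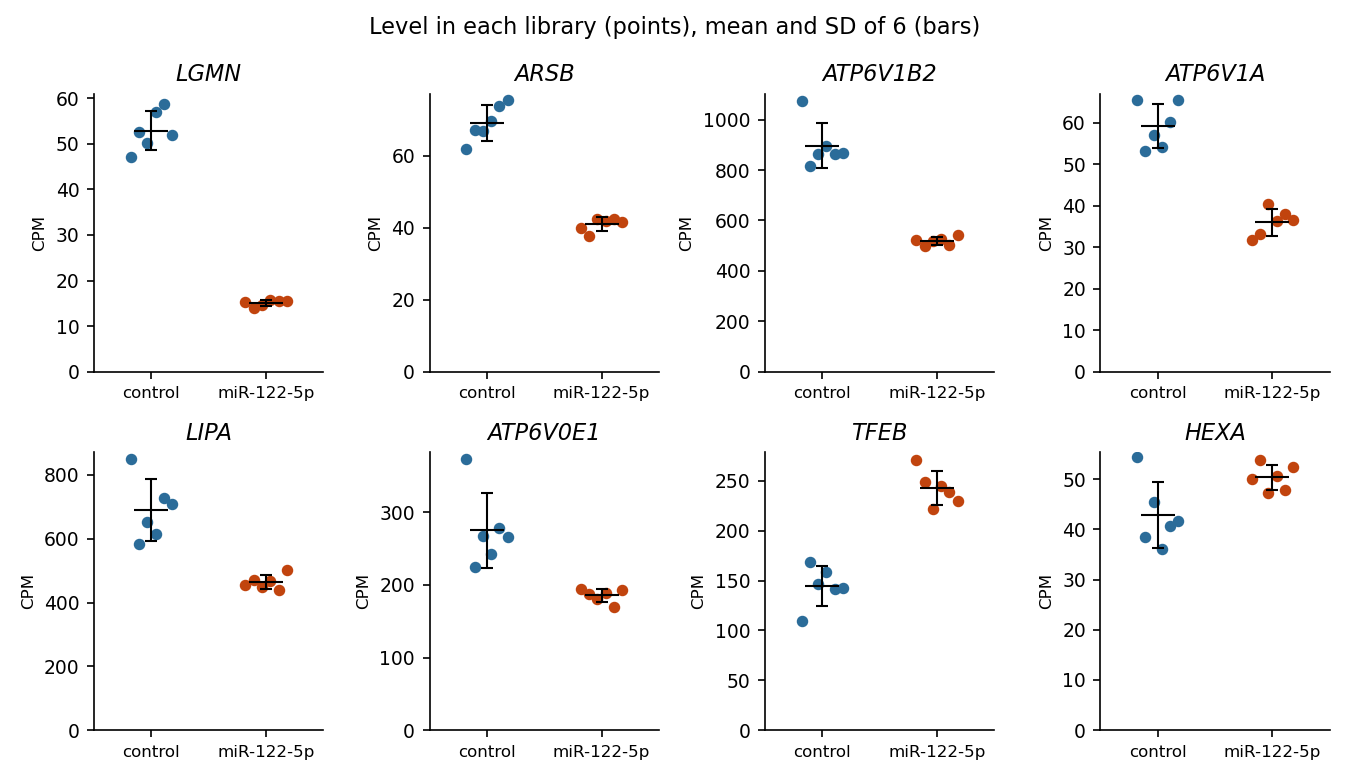
CPM (vertical axes, from 0) of 8 genes in each of the 6 control and 6 miR-122-5p libraries, with the mean and SD as bars. The groups are separate in LGMN, ARSB, ATP6V1B2, ATP6V1A, LIPA, ATP6V0E1 and TFEB, and overlap in HEXA.

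Among the 16 hydrolases 4 rose, 5 fell and 7 were not called, a median log2 fold change of -0.029. The shares that rose and fell were 25.0% and 31.2%, beside 24.3% and 26.2% of all tested genes. The fall of LGMN was the largest absolute change among the 41 genes. LGMN encodes legumain, the asparaginyl endopeptidase that cleaves after asparagine and matures other lysosomal proteases (chr14:92703807-92748702, minus strand). It was at 14.0, 15.3 and 15.7 CPM with miR-122-5p and at 47.1, 52.3 and 58.8 CPM in controls. All 6 miR-122-5p libraries lay close together and far below every control. Its log2 fold change was -1.81 ± 0.08 (edgeR adjusted p = 5.97e-14), -1.87 GC-corrected and -1.83 with the slope covariate, and ran from -1.84 to -1.78 with a library left out.

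ARSB, arylsulfatase B, which removes sulfate from dermatan and chondroitin sulfate, was at 37.8, 41.6 and 42.6 CPM with miR-122-5p and 61.9, 68.5 and 75.5 CPM in controls. The groups were apart. Its log2 fold change was -0.75 ± 0.07 (edgeR adjusted p = 1.00e-08) and -0.66 GC-corrected (adjusted p = 4.32e-09). ARSB carries both 3′ UTR seed matches shown above, and the promoter of the start listed in RefSeq carries a TCACGTG on the opposite strand.

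LIPA, lysosomal acid lipase, which hydrolyses cholesteryl esters and triglycerides taken up with lipoproteins, was at 439, 461 and 500.3 CPM with miR-122-5p and 583, 681 and 851 CPM in controls, without overlap. The log2 fold change of -0.57 ± 0.08 (edgeR adjusted p = 3.16e-06) was -0.35 GC-corrected and -0.17 with the slope covariate (not called, edgeR adjusted p = 0.217). TPP1, the tripeptidyl peptidase, fell by a smaller amount, from 278 ± 26.3 to 238 ± 10.8 CPM (log2 fold change -0.23 ± 0.07, edgeR adjusted p = 0.00829, GC-corrected -0.21). ASAH1, acid ceramidase, fell from 463 ± 52.1 to 379 ± 10.7 CPM (log2 fold change -0.29 ± 0.07, edgeR adjusted p = 0.00198), but GC-corrected it was at 0.064 (adjusted p = 0.330). It has the lowest GC content of the 41 genes, 37.3%.

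Of the 4 hydrolases that rose, ARSA had the largest change. This arylsulfatase, which desulfates sulfatide, was at 179.7, 188 and 217 CPM with miR-122-5p and 101, 139 and 169.7 CPM in controls. The groups did not overlap (log2 fold change 0.48 ± 0.10, edgeR adjusted p = 3.40e-04). It has the highest GC content of the 41 genes, 66.0%, and its GC-corrected log2 fold change was -0.019.

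MAN2B1, the lysosomal alpha-mannosidase, was at 319.6, 334 and 359 CPM with miR-122-5p and 232, 272 and 302 CPM in controls, without overlap (log2 fold change 0.32 ± 0.07, edgeR adjusted p = 5.60e-04, GC-corrected 0.075). GUSB, beta-glucuronidase, was at 114, 126 and 142 against 104, 111 and 121 CPM, with overlap (log2 fold change 0.18 ± 0.07, edgeR adjusted p = 0.0268, GC-corrected 0.10). HEXA, the alpha chain of beta-hexosaminidase, was at 47.3, 50.4 and 53.9 against 36.0, 41.2 and 54.5 CPM, with overlap (log2 fold change 0.24 ± 0.09, edgeR adjusted p = 0.0285). HEXA was the only hydrolase whose rise was also called GC-corrected (0.36, adjusted p = 7.72e-04). As counted, the call of HEXA was lost on leaving out control libraries 4 or 5 (edgeR adjusted p = 0.0634 and 0.0582) or library 2 of the miR-122-5p group (0.0509). That of GUSB was lost on leaving out control library 5 (edgeR adjusted p = 0.0653) or libraries 1 or 2 of the miR-122-5p group (0.0531 and 0.0662).

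The 7 hydrolases that were not called had log2 fold changes between -0.11 (GLA, alpha-galactosidase A) and 0.15 (NAGLU, which acts on heparan sulfate). NEU1, the sialidase, was at -0.049, PPT1, which removes palmitate from proteins, at -0.056, SMPD1, acid sphingomyelinase, at -0.009, GLB1, beta-galactosidase, at 0.13 and GAA, which degrades glycogen, at 0.13. GC-corrected, the GC-rich genes of this set were called lower: GAA at -0.29, NAGLU at -0.30 and SMPD1 at -0.30. The other 4 were not called (GLA -0.10, NEU1 -0.060, PPT1 0.10 and GLB1 0.11).

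The activators and cofactors were among the most abundant transcripts of the module and none was called with edgeR and TMM scaling as counted. PSAP, the precursor of the saposins that present sphingolipids to their hydrolases, was at 6481, 6749 and 7292 CPM with miR-122-5p and 5737, 6272 and 6747 CPM in controls, with overlap (log2 fold change 0.13 ± 0.06, edgeR adjusted p = 0.0520, GC-corrected 0.024). In 9 of the 22 refits PSAP was called higher, among them DESeq2, limma-voom and library totals, but not in the GC fits. Per kilobase of exon it was at 1931 CPM in controls, above GM2A, the GM2 activator (457), PPT1 (421) and GRN (406). PSAP was also first per kilobase of the longest transcript, where GRN lay above PPT1 and GM2A. GM2A was at a log2 fold change of -0.003 ± 0.07 (0.076 GC-corrected). GRN, progranulin, was at -0.13 ± 0.07 (edgeR adjusted p = 0.133), and at -0.48 GC-corrected (adjusted p = 1.73e-07).

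Of the 3 TFE factors, TFEB alone was called, and it rose, as did 24.3% of all tested genes. TFEB was at 222, 242 and 271 CPM with miR-122-5p and 109.9, 145 and 169 CPM in controls. All 6 miR-122-5p libraries lay above all controls, and control library 1 was the lowest of the 12. The log2 fold change was 0.74 ± 0.08 (edgeR adjusted p = 2.74e-07), 0.54 GC-corrected (adjusted p = 1.52e-07) and 0.33 with the slope covariate (adjusted p = 0.0273).

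TFE3 was at 57.7 ± 5.43 against 58.0 ± 4.62 CPM (log2 fold change -0.007 ± 0.08, edgeR adjusted p = 0.944) and MITF at 18.7 ± 1.63 against 18.3 ± 2.17 CPM (0.031 ± 0.09, edgeR adjusted p = 0.806). GC-corrected they went opposite ways, TFE3 to -0.28 (adjusted p = 0.00175) and MITF to 0.30 (adjusted p = 0.00222). Per kilobase of exon, TFEB went from 25.7 to 42.9 CPM, TFE3 was at 13.5 in both groups and MITF at 2.55 and 2.60.

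The genes whose promoter window holds TCACGTG did not rise together. Of the 8, ATP6V0B rose, ARSB and LAMP1 fell and 5 did neither, and their median log2 fold change was 0.060 (-0.17 GC-corrected). Of the 20 matched genes without it, 4 rose, 3 fell and 13 were not called, with a median of -0.005 (0.038 GC-corrected). The LAMP1 window held 6 matches, the most of the 8. The absence of a match says only that these letters are not in the window searched.

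**Figure D3:**
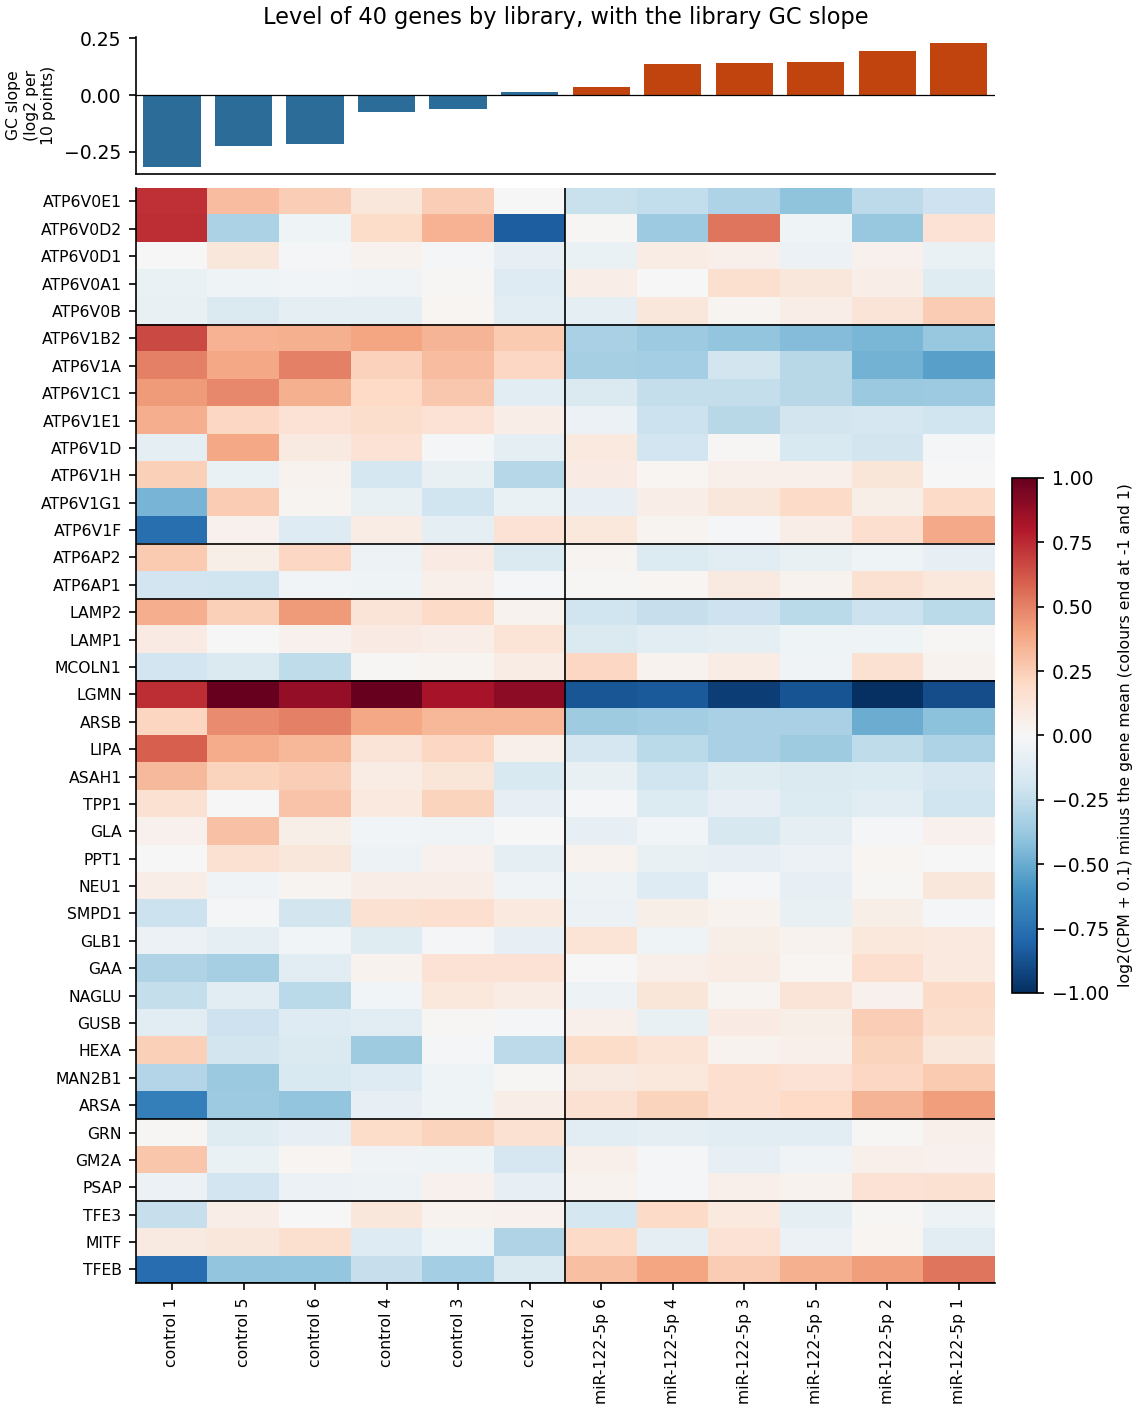
Upper panel: slope of relative log2 CPM on transcript GC content in each library. Lower panel: log2(CPM + 0.1) of 40 genes (all but ATP6V0C) minus the gene's mean, by role and by library, ordered within each group by that slope. The 4 falling V1 subunits and the hydrolases LGMN, ARSB and LIPA are red in controls (except ATP6V1C1 in control library 2) and blue with miR-122-5p, and TFEB is the reverse.

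Fold change and GC content went together across the 41 genes. The genes that rose had a median transcript GC content of 57.7% (47.0 to 66.0%), those that fell 43.5% (37.3 to 52.5%) and those not called 52.7%. Across the 41 genes, Pearson's r of GC content and log2 fold change was 0.52 (0.47 without ATP6V0C), and 0.05 GC-corrected. The correction is built to remove the trend with GC content, so the low r after it follows from the method. The genes share the same 12 libraries and are not independent replicates, so no p is given.

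**Figure D4:**
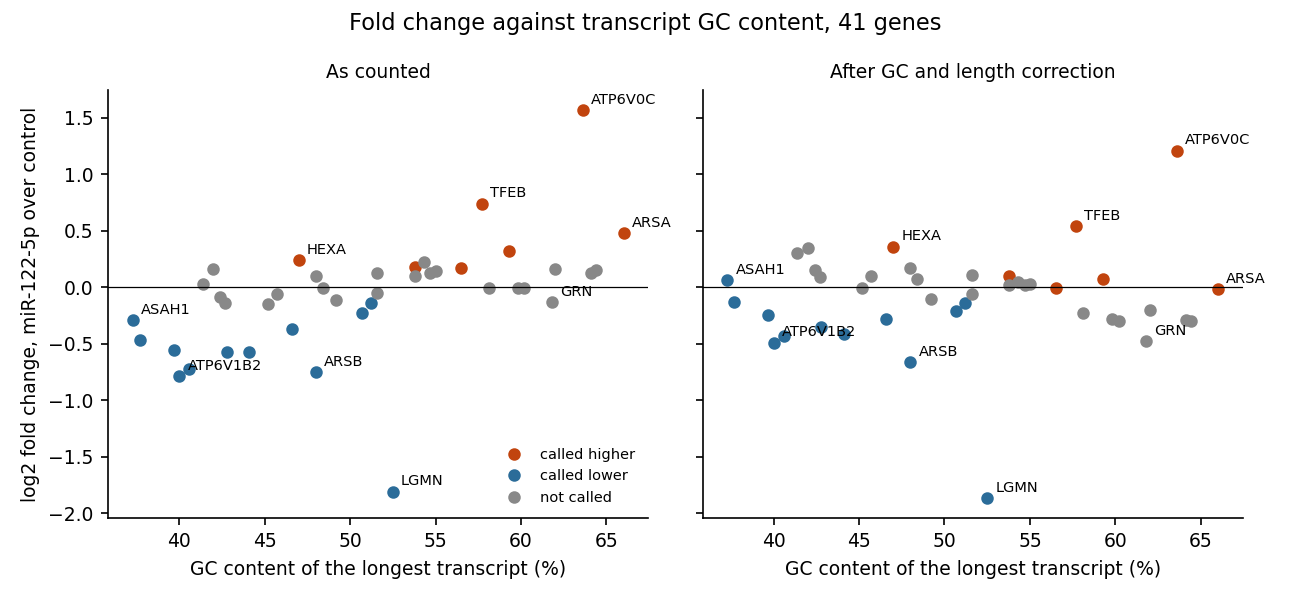
Log2 fold change, miR-122-5p over control (vertical axis), against the GC content of the longest transcript (horizontal axis, %) for 41 genes, coloured by the call on the values as counted. On the left the points rise with GC content (r = 0.52), and on the right, GC-corrected, they do not (r = 0.05), while LGMN stays lowest at -1.87. The correction is built to remove that trend.

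The rest of the lysosomal apparatus was read from 5 lists of other genes. Of 106 listed genes 102 were tested: 21 rose (20.6%), 37 fell (36.3%) and 44 did neither, beside the 24.3% and 26.2% of all genes. Their median log2 fold change was -0.086. GC-corrected, 27 were higher and 34 lower.

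Other V-ATPase isoforms and assembly factors comprised 18 tested genes, of which 4 rose and 7 fell (22.2% and 38.9%, beside 24.3% and 26.2% of all tested genes, median -0.14). NCOA7, a protein known to bind the V-ATPase, fell from 221 to 117 CPM (log2 fold change -0.91 ± 0.10, edgeR adjusted p = 1.78e-07). DMXL1 (-0.74) and ROGDI (0.86), both parts of the RAVE-type complex that assembles V1 on V0, went opposite ways, and ATP6V0A2 was at -0.76. The GC-corrected values of these 4 were -0.64, -0.41, 0.53 and -0.54.

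Of 28 other hydrolases and cofactors 7 rose and 9 fell (25.0% and 32.1%, beside 24.3% and 26.2% of all tested genes, median -0.080). PLA2G15, a lysosomal phospholipase, rose from 47.4 to 66.2 CPM without overlap between groups (log2 fold change 0.48 ± 0.08, edgeR adjusted p = 3.86e-05, GC-corrected 0.24).

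Among these lists, falls were most frequent in the 23 other lysosomal membrane proteins tested. As counted, 12 fell and 3 rose (52.2% and 13.0%, beside 26.2% and 24.3% of all tested genes, median -0.24). GC-corrected, 11 fell and 4 rose (47.8% and 17.4%, beside 23.5% and 23.3%). With the slope covariate 6 fell and 2 rose (26.1% and 8.70%, beside 12.2% and 7.22%). LAMP3, the LAMP family member known from mature dendritic cells, went from 40.3 to 11.7 CPM (log2 fold change -1.79 ± 0.15, edgeR adjusted p = 2.66e-09). SCARB2, the receptor that carries glucocerebrosidase to the lysosome, was at -0.70, LAPTM4A at -0.52, and TPCN1, an endolysosomal cation channel, at 0.98, each without overlap between groups. GC-corrected, LAMP3 was at -1.62, SCARB2 at -0.45, LAPTM4A at -0.38 and TPCN1 at 0.80.

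Of 11 genes of mannose 6-phosphate tagging and sorting 3 rose and 2 fell (27.3% and 18.2%, beside 24.3% and 26.2% of all tested genes). SORT1, sortilin, a receptor that carries hydrolases from the Golgi, was at -1.02 ± 0.10 (edgeR adjusted p = 2.53e-08), GGA1, its adaptor, at 0.77, SORL1 at 0.73 and GNPTG, a subunit of the tagging enzyme, at 0.31 (GC-corrected -0.87, 0.43, 0.84 and 0.18). The other fall was that of GNPTAB, which encodes the catalytic subunits of the tagging enzyme, at -0.49 (edgeR adjusted p = 0.0103; GC-corrected -0.26 and not called, adjusted p = 0.130), so the genes of that enzyme went opposite ways as counted. The mannose 6-phosphate receptors M6PR and IGF2R were not called (-0.089 and 0.065), and IGF2R was called higher GC-corrected (0.14, adjusted p = 0.0203).

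Among 22 genes that control TFE factors 4 rose and 7 fell (18.2% and 31.8%, beside 24.3% and 26.2% of all tested genes). TFEC, a further member of the same family with expression known in macrophages, went from 135 to 41.1 CPM (log2 fold change -1.71 ± 0.09, edgeR adjusted p = 2.77e-12, GC-corrected -1.30), so TFEB and TFEC moved in opposite directions. YWHAB, a 14-3-3 protein of the group that holds phosphorylated TFEB in the cytosol, was at -0.71, FNIP2, a partner of folliculin, at -0.78, and LAMTOR4, of the Ragulator complex, at 0.49 (edgeR adjusted p from 2.44e-08 to 1.82e-05). GC-corrected, YWHAB was at -0.48, FNIP2 at -0.55, and LAMTOR4 at 0.13 and not called (adjusted p = 0.104). The Ragulator genes went different ways: LAMTOR1 (0.22) and LAMTOR5 (0.27) also rose, LAMTOR2 (0.22) was not called, and LAMTOR3 fell (-0.55 ± 0.10, edgeR adjusted p = 5.72e-05, GC-corrected -0.20).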

How the data were processed

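Gene counts of 12 libraries were analysed, 6 per group. The authors deposited unnormalized whole-number counts of reads for each gene. Tools named in the submitters' processing notes are featureCounts 1.5.0-p3 and HISAT2 2.0.5, with the hg38 build, and the strand setting is not given in the sources used here. Without strand, overlapping genes cannot be told apart. Control columns were matched to the control group by name and number. GENCODE 29 gave symbols, coordinates, exons and 3′ UTRs; RefSeq gave promoters and the microRNA. In R 4.3.3, counts passing filterByExpr were scaled by TMM and tested with edgeR 4.0.16 (quasi-likelihood, Benjamini-Hochberg, threshold 0.05). The GC and length correction used natural splines with 4 degrees of freedom per library as offsets. Counts were simulated for the 15471 genes of this comparison, with 50 genes changed at each size. Planted log2 changes of 0.25 were recovered in 12.2%, of 0.5 in 48.0% and of 1 in 86.0%. Far fewer genes were changed there than were called in the data, and they were drawn at all levels. These are therefore not recovery rates for the genes described here. Full statistics were given for the 6 largest called changes in each direction and the smallest p of each role, and up to 4 called genes of other lists; further values were chosen after being seen, and a few items are not reported here. The members and lists were chosen with earlier results of these data known. Alternatives were DESeq2 1.42.0, limma-voom 3.58.1, RLE and library-total scaling, other low-count filters, an adjusted p under 0.01, the replicate block, the GC fits and each library left out. No library was a copy of another (chi-square over degrees of freedom 7.4 to 65.5 for pairs within a group).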

Additional observations from a re-analysis of the deposited data

Results flagged for a closer look

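Each gene in each group of 6 libraries was checked for a library whose gap to its nearest neighbour took more of the group's range than Dixon's 95% critical value allows, and 6 of 82 such groups had one. Chance gives about 1 in 20. All 6 are in controls, 5 of them in control library 1. ATP6V0E1 was highest there at 373 CPM (next 279), and without that library its log2 fold change was -0.46. ATP6V1B2 was highest there at 1075 CPM (next 895; -0.73 without it). GM2A was highest there at 2474 CPM (next 2063; 0.063 without it and not called). ATP6V1F was lowest there at 184 CPM (next 284; 0.12 without it and not called). TFE3 was lowest there at 49.1 CPM (next 58.0; -0.047 without it and not called). GLA was highest in control library 5 at 324 CPM (next 275; -0.067 without it and not called). Control library 1 also had the lowest GC slope of the 12, -0.318 log2 units per 10 percentage points; the part of that slope in these values was not tested.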

How the results depend on the processing

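The count of genes called higher, 7 of 41, was 10 with DESeq2, 8 with limma-voom, 9 with RLE scaling and 12 with library totals. It was 4 with the GC slope covariate, 3 at an adjusted p under 0.01 and 3 to 9 with a library left out. The count called lower, 12, was also 12 with DESeq2 and limma-voom, and 11 with RLE scaling and library totals. It was 11 to 13 with a library left out and 5 with the GC slope covariate. With that covariate 1117 of all genes were higher and 1887 lower (3756 and 4054 without it), and 9 and 19 of the other lysosomal genes (21 and 37 without it). In that order, leaving a library out gave 3446 to 3846, 3727 to 4033, 20 to 23 and 34 to 38. Per kilobase of the longest transcript, the control level of PSAP was 2178 rather than 1931 CPM. The sign of 10 of the 41 genes turned GC-corrected, 5 of them called in neither fit (MCOLN1, ATP6AP2, PPT1, ATP6V0D2 and GM2A). The 5 called in either fit, with values GC-corrected and then also with the replicate block, were ATP6V0B (-0.008 and -0.007), GAA (-0.29 and -0.29), NAGLU (-0.30 and -0.29), ARSA (-0.019 and -0.019) and ASAH1 (0.064 and 0.064). With the GC slope covariate 13 turned, 10 of them called in neither fit (such as ATP6V1F, -0.28, and GAA, -0.27) and 3 called in the fit without it: ATP6V0C (-1.01), ARSA (-0.092) and ASAH1 (0.033). Numbers shared by the groups did not pair libraries (correlations of same-numbered libraries -0.105 to 0.066, and 1 of 6 correlated best with its own number), and with the replicate block 6 genes were higher and 11 lower. The low counts of ATP6V0C and ATP6V0D2 limit both. One cell line, a confounded GC slope and libraries of unknown origin limit what the fold changes mean, and small changes rest on single libraries.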
